A study of Homo sapiens with 12 samples.

Results

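The genes described here are those whose read counts differed in the same direction between even-numbered and odd-numbered libraries of A549 cells in both of 2 library sets. A549 is a human lung adenocarcinoma line, here carrying a DYRK1B gene under a doxycycline-inducible (tet-on) promoter, either the wild-type kinase (WT) or its Y273F mutant. Of 13047 genes tested among 40605 rows, 1281 met the rule (9.82%), 681 of them higher (5.22%) and 600 lower (4.6%) in even libraries. A gene met it where, within set A (library numbers 1, 2, 5, 6, 9 and 10) and again within set B (3, 4, 7, 8, 11 and 12), no even library overlapped an odd one. The even libraries are labelled WT control 2 (library 2), WT doxycycline 1 and 3 (4 and 6), Y273F control 2 (8), and Y273F doxycycline 1 and 3 (10 and 12). The odd ones are labelled WT control 1 and 3 (1 and 3), WT doxycycline 2 (5), Y273F control 1 and 3 (7 and 9), and Y273F doxycycline 2 (11). Per the labels, doxycycline was given at 2 µg/ml and every culture was kept for 7 days. All 12 libraries carry an inducible transgene, and no line without one is among them. Even and odd numbers, and sets A and B, cross the genotypes and the treatments in the titles, and the labels do not say what either division stands for. The series text describes 3 separate populations grown and lysed side by side, and all libraries have the same batch label. Because the genes were selected on the measured counts of these same libraries, their differences are given as a description, with no test, and nothing is read from the share of genes that met the rule.

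As background, DYRK1B belongs to a family of kinases that activate themselves, while being translated, by modifying a tyrosine in the activation loop, and Y273F removes that residue. Several of the gene groups below belong to known programmes. In the integrated stress response, phosphorylation of the initiation factor eIF2α lowers general translation and favours that of ATF4, a transcription factor for amino acid transporters, amino acid synthesis enzymes and aminoacyl-tRNA synthetases. Contractile and matrix genes are classic targets of serum response factor, YAP and TAZ with TEAD factors, and TGF-β. HIF-1 drives glycolytic genes under low oxygen, SREBP factors drive sterol and fatty acid synthesis, and XBP1 and ATF6 drive chaperones of the endoplasmic reticulum. A549 cells are also known to make fibrinogen, complement components and airway mucins.

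Reads were counted per gene by QuantSeq, a method that reads a tag near the 3′ end of each polyadenylated RNA. Levels are CPM (counts scaled to the size of the library), and a difference is that of mean log2 CPM, even minus odd, over 3 libraries on each side of a set. Its standard error (SE) covers the spread between these libraries only. In bulk samples fewer cells of a type and less RNA per cell cannot be told apart. Even libraries held 2.78e+06 to 9.17e+06 counts (median 5.82e+06) and odd ones 5.08e+06 to 22.03e+06 (median 8.91e+06), so that 3 counts in a library equal 0.136 to 1.08 CPM. The even libraries of set A, 2, 6 and 10, stood apart: in a principal component analysis of 500 genes chosen for their variance, they lay at 42.4 to 46.4 and the other 9 at -4.64 or below on component 1 (69.3% of variance). Values of set B, which does not contain them, are therefore given throughout. DYRK1B, the transgene's own gene, had 28.6, 12.6 and 20.0 CPM in even libraries of set B (4, 8 and 12), against 5.64, 2.63 and 4.89 CPM in odd ones (3, 7 and 11). In set A it overlapped, with 3.15, 7.80 and 4.65 CPM in even libraries (2, 6 and 10) and 5.80, 4.07 and 3.22 CPM in odd ones (1, 5 and 9), so it is not among the 1281 genes. Its level thus did not follow the titles in every library, and the sources used here do not give the 3′ end of the transgene, which decides whether its reads fall on this gene. Set A and set B were themselves divided without overlap by 411 genes (3.15%), among them CSAG1 and MAGEA12, cancer-testis genes with higher values in set B, and CDH10, a cadherin gene with higher values in set A. All 3 were named after their values were seen.

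Markers of other cell types were mostly low, with exceptions. None of 10 alveolar and airway markers passed the count filter, and SFTPB, which encodes a surfactant protein, had 0 counts in all 12 libraries. The endothelial genes VWF and KDR and the leukocyte gene CD3E were also at 0. Of 7 leukocyte markers 2 passed the filter, CD14, which had 4.98 to 10.9 CPM and is not a member, and LYZ, lysozyme, which had 0 to 3.67 CPM and was lower in even libraries. Of 11 fibroblast and smooth muscle markers, 4 were tested and 2, COL1A1 and THY1, were higher in even libraries. LUM, a matrix proteoglycan gene, differed by 3.18 in set A and -1.28 in set B, while the defining fibroblast gene DCN had 1 count in all and the muscle gene DES 0. COL1A2, COL3A1, PDGFRA, PDGFRB and MYH11 did not pass the count filter. Summed over the 11, these markers came to 198 to 258 CPM in even and 35.3 to 40.8 CPM in odd libraries of set A, and to 51.8 to 63.1 and 33.6 to 37.4 CPM in set B. The sums include COL1A1, itself a member, with means of 165 and 21.2 CPM in even and odd libraries of set A and 29.9 and 13.8 CPM in set B. They are therefore no separate measure of fibroblast content. Among the epithelial genes KRT8, KRT18, KRT19, EPCAM and CDH1, all 5 were expressed, KRT18 and KRT19 were higher in even libraries, and EPCAM was lower.

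The shift was larger in set A than in set B for 1139 of the 1281 genes. Higher members had a median difference of 1.07 in set A and 0.43 in set B, and lower members of -0.72 and -0.33, against -0.02 and 0.00 over all tested genes. In both sets 132 genes differed by more than 2-fold (92 higher and 40 lower), whereas 373 differed by less than 1.5-fold in both. Taken alone, set A had 7217 genes without overlap (55.3%) and set B 2281 (17.5%). The 1281 genes made up 17.75% of the genes of set A and 56.16% of those of set B. With the sets pooled, 458 of the 681 higher and 366 of the 600 lower members still had no overlap of their 6 even and 6 odd libraries. A further 244 genes (1.87%) did not overlap in either set but went in opposite directions, 129 of them higher in even libraries of set A and lower in those of set B. Across the 13047 genes, which are not independent and share library sizes within each set, the differences of the sets had a Pearson correlation of 0.41 and the same sign in 61.5%.

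**Figure D1:**
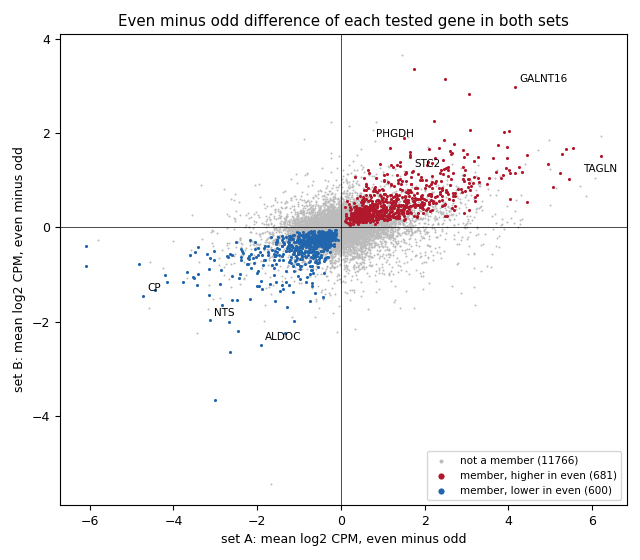
Each point is 1 of the 13047 tested genes, with its even minus odd difference of mean log2 CPM in set A on the horizontal axis and in set B on the vertical axis (3 even and 3 odd libraries per set). Red points are the 681 genes higher and blue points the 600 genes lower in even libraries of both sets, most of which lie farther from 0 along the axis of set A, and grey points are all others.

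The threshold is a strict one on order and not on size. LINC00685, a noncoding RNA just inside it, had 9.58, 10.3 and 9.89 CPM in even libraries of set B and 5.42, 6.77 and 9.58 CPM in odd ones. TXLNG, just inside on the lower side, had 40.9, 47.8 and 49.4 CPM in even and 50.9, 51.4 and 49.5 CPM in odd libraries of set B. In both genes the nearest even and odd values differ by less than a rounding step. Just outside, KCNQ3, a potassium channel gene, had 6.08, 6.41 and 7.52 CPM in even and at most 0.209 CPM in odd libraries of set A, but was at 0 in 2 even libraries of set B and in all 3 odd ones. SLC16A12, a carrier gene, was likewise at 0 in 1 even library of set B. Of the 1281 genes, 154 had a mean under 5 CPM over the 12 libraries, and in 48 either the even or the odd libraries lay below the level the count filter asks for (1.33 CPM).

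Genes of the integrated stress response were higher in even libraries. Of 35 tested genes on this list, 17 were members, all 17 higher. Beside this and every list below, 5.22% of all tested genes were higher members and 4.6% lower members. The median difference of the 35 was 0.36 in set A and 0.43 in set B, and without overlap in 1 set alone, 21 were higher and 6 lower in set A and 24 higher and 0 lower in set B. Over all tested genes, 27.7% were higher and 27.6% lower in set A alone, and 8.98% and 8.5% in set B alone. Among the 6 were SLC38A2, a glutamine carrier, and DDIT4, an inhibitor of mTORC1, both named after their values were seen, with differences of -0.93 and -1.09 in set A and -0.34 and -0.04 in set B. SLC3A2, the heavy chain shared by several amino acid transporters, was read at 686, 642 and 669 CPM in even and 368, 341 and 348 CPM in odd libraries of set A. In set B it was at 487, 416 and 435 against 287, 313 and 308 CPM, so that the differences were 0.92 (SE 0.04) and 0.56 (SE 0.08). Its partner SLC7A5, the large neutral amino acid transporter, had 277, 231 and 264 CPM in even and 129.8, 123 and 119 CPM in odd libraries of set A, and 158, 153 and 146 against 83.4, 98.1 and 101 CPM in set B. The other partner gene, SLC7A11, which encodes the cystine carrier, was higher by 0.66 (SE 0.05) and 0.27 (SE 0.07). Both subunits of these transporters were thus higher in even libraries, and for SLC3A2 and SLC7A5 the odd libraries of set B lay below those of set A.

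Serine synthesis and stress effector genes are on the same list. PHGDH, the first enzyme of serine synthesis, had 48.4, 51.9 and 61.2 CPM in even and 25.1, 21.5 and 24.6 CPM in odd libraries of set A. It had 129, 98.6 and 120.2 against 37.3, 32.7 and 37.9 CPM in set B, where the even mean was 3.22 times the odd mean, a larger ratio than the 2.27 of set A. TRIB3, a pseudokinase induced by ATF4 that dampens it, had 109, 105 and 101 against 41.9, 41.0 and 38.3 CPM in set A and 65.5, 62.8 and 65.6 against 28.8, 33.4 and 33.8 CPM in set B. STC2, a secreted glycoprotein, was at 59.2, 55.8 and 57.3 CPM in even and 19.0, 19.3 and 16.3 CPM in odd libraries of set A, and at 83.6, 49.2 and 43.4 against 32.7, 14.0 and 15.8 CPM in set B, where library 3 lay above the other odd ones. PSPH, the last enzyme of serine synthesis, differed less, by 0.55 in set A and 0.39 in set B. PHGDH, TRIB3 and PSPH were named after their values were seen. The transcription factor genes ATF4, DDIT3, ATF3 and CEBPB and the serine synthesis gene PSAT1 were tested and are not members.

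The enzymes that join amino acids to their transfer RNAs were looked at after the data were seen. Of 20 tested cytosolic aminoacyl-tRNA synthetase genes, 7 were higher and 1 lower, while of 16 mitochondrial ones 0 were higher and 2 lower. The higher genes CARS1, GARS1, NARS1, SARS1, WARS1 and YARS1 already count among the 17 higher members of the stress response list, so the lists are not separate. GARS1, which charges glycine and serves both compartments, had 189, 191 and 190.4 CPM in even and 125, 141 and 134 CPM in odd libraries of set A, and 212, 197 and 191 against 137, 133 and 130.4 CPM in set B. CARS1, for cysteine, had 122, 117 and 123 against 76.0, 73.7 and 71.3 CPM and 126, 110.3 and 105 against 71.9, 64.3 and 75.8 CPM. NARS1, for asparagine, differed by 0.34 (SE 0.11) and 0.32 (SE 0.05), and TARS1, for threonine, by 0.47 (SE 0.09) and 0.31 (SE 0.08). QARS1, for glutamine, was the 1 lower gene, at 83.9, 78.1 and 89.1 CPM in even and 133, 143 and 119 CPM in odd libraries of set A and 114, 115 and 113 against 123, 128 and 130.0 CPM in set B. CARS1, NARS1, SARS1, TARS1, WARS1, YARS1 and QARS1 were named after their values were seen.

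Promoter windows were taken from RefSeq (GRCh38.p14), with 250 bases before and 50 after each listed start, and were present for 10191 of the 13047 tested genes and 1006 of the 1281 members. The element bound by ATF4 with C/EBP factors, searched as TGATGNAA on both strands, was present in a window of 7 of the 13 higher stress response genes with one (53.8%) and of 277 of the 10191 tested genes (2.72%). It was present for 6.32% of higher and 3.51% of lower members. The windows of the 4 such genes of highest mean CPM are shown because these genes were higher together, with the match in capitals, 5′ to 3′ on the gene's strand. They lie at chr11:62881449-62881748 (plus strand), chr7:30594628-30594927 (plus), chr18:57621787-57622086 (minus) and chr11:3057374-3057673 (minus), and SLC3A2, GARS1 and CARS1 have other listed starts without a match.
SLC3A2: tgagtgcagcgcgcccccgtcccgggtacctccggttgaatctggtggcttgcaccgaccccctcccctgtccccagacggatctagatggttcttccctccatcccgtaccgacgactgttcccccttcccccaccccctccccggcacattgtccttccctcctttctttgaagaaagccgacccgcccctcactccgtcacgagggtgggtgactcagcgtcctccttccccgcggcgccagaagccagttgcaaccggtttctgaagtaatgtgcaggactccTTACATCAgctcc
GARS1: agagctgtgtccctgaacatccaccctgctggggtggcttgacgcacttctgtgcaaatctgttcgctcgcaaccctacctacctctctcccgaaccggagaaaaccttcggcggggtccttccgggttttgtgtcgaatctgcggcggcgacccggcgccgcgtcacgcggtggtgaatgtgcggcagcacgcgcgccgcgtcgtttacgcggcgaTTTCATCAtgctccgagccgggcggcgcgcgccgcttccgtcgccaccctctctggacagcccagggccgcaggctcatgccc
NARS1: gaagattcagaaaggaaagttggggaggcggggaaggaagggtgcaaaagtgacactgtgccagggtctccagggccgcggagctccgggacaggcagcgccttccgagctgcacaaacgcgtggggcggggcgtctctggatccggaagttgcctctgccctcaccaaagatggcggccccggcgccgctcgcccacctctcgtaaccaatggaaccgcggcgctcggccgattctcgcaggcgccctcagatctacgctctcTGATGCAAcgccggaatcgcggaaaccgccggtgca
CARS1: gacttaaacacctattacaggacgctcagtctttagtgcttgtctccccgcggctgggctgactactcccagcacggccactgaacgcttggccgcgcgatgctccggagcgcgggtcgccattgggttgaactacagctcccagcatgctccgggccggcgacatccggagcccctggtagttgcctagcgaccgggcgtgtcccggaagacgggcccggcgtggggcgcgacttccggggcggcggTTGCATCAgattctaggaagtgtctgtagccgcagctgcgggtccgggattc
A match is a description of letters, not of a bound site. The list holds genes of the ATF4 programme, so the share with a match may belong to the list as a whole. Its genes that are not members were not counted apart.

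**Figure D2:**
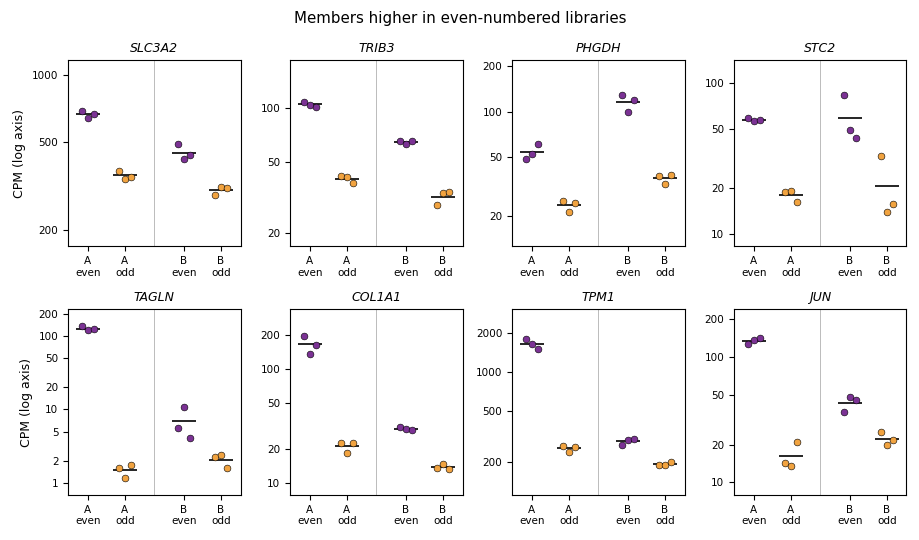
CPM on a log axis in each library for 8 genes higher in even libraries, with even left of odd in set A and again in set B (3 libraries each, bars at the mean). Of the stress response list, SLC3A2 and TRIB3 differ more in set A, STC2 by similar factors and PHGDH more in set B, while TAGLN, COL1A1, TPM1 and JUN differ far more in set A.

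Matrix and mesenchymal genes were higher in even libraries for 13 of 30 tested genes and lower for 0. Their median difference was 1.99 in set A and 0.31 in set B, with 28 higher and 0 lower in set A alone and 14 higher and 1 lower in set B alone. COL1A1, a chain of collagen I, was at 197, 136 and 163 CPM in even and 22.6, 18.5 and 22.6 CPM in odd libraries of set A and 30.8, 29.6 and 29.3 against 13.4, 14.5 and 13.3 CPM in set B. TGFBI, an adhesion protein induced by TGF-β, differed by 2.95 (SE 0.14) in set A but by 0.31 (SE 0.06) in set B. VIM, the intermediate filament vimentin, differed by 1.15 (SE 0.12) and 0.17 (SE 0.06). The matrix glycoprotein gene TNC, chosen once its values were known, had 4.73, 6.54 and 6.08 CPM in even and 0.114, 1.04 and 0.537 CPM in odd libraries of set A and 3.05, 4.98 and 3.80 against 0.339, 0.502 and 0.195 CPM in set B, with differences of 3.06 (SE 0.55) and 2.83 (SE 0.29). The odd values of TNC in libraries 1 and 11 are under 3 counts, and its odd means lie below the level the count filter asks for. FN1, THBS1, CCN1 and CCN2 were tested and are not members. The part of fibroblast-like marker expression in these values was not tested beyond the sums given above, and COL1A1 belongs to both lists.

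Actin and contractile genes were higher for 10 of 23 tested genes and lower for 0, with median differences of 1.42 in set A and 0.25 in set B. TPM1, a tropomyosin that stabilises actin filaments, had 1803, 1652 and 1512 CPM in even and 266, 241 and 263 CPM in odd libraries of set A, and 269.6, 296 and 304 against 192, 188 and 202 CPM in set B. TAGLN, the actin-binding protein transgelin, was at 137, 121 and 124 against 1.59, 1.15 and 1.74 CPM in set A and 5.51, 11.0 and 4.13 against 2.26, 2.38 and 1.56 CPM in set B. ACTB and ACTN4, for β-actin and an actin crosslinker, differed by 0.73 (SE 0.05) and 0.57 (SE 0.05) in set A and by 0.26 (SE 0.08) and 0.25 (SE 0.06) in set B. CALD1, caldesmon, differed by 1.51 (SE 0.02) and 0.16 (SE 0.06). Of these genes only TAGLN was more than 2-fold higher in set B.

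Among 22 tested YAP/TAZ and TEAD targets, 8 were higher and 2 lower. ANKRD1, a muscle ankyrin repeat gene that is a standard reporter of this pathway and was chosen once its values were known, had 137, 161 and 135 CPM in even and 6.48, 9.18 and 12.1 CPM in odd libraries of set A, and 23.7, 21.9 and 22.8 against 8.80, 7.78 and 7.62 CPM in set B. MYOF, a membrane repair protein, differed by 1.85 (SE 0.09) and 0.60 (SE 0.12), and ASAP1, a regulator of focal adhesions, by 0.69 (SE 0.06) and 0.16 (SE 0.06). NT5E, the ectonucleotidase CD73, was lower, at 57.2, 59.2 and 54.0 CPM in even and 119, 116 and 115 CPM in odd libraries of set A and 66.3, 61.1 and 59.6 against 71.0, 75.6 and 80.7 CPM in set B. The TEAD sequence GGAATG, searched on both strands, was in a promoter window of 23.4% of higher and 14.9% of lower members, and of 15.1% of all tested genes. The AP-1 sequence TGANTCA was found for 11.7%, 8.88% and 7.16%, and the CArG box, named here without letters, for 4.21%, 1.86% and 1.52%. Genes with several listed starts have more windows to match in.

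Of 25 immediate early and AP-1 genes, 3 were higher, 2 lower and 20 neither, beside 5.22% and 4.6% of all tested genes. This list went both ways, with 9 higher and 8 lower in set A alone and 3 and 4 in set B alone. JUN, an AP-1 subunit, had 128, 136 and 141 against 14.2, 13.5 and 21.1 CPM in even and odd libraries of set A and 36.7, 47.8 and 45.1 against 25.2, 20.1 and 21.9 CPM in set B. FOSL1, its dimer partner FRA1, differed by 1.62 (SE 0.14) and 0.74 (SE 0.28), and DUSP1, a phosphatase of MAP kinases, by 2.53 (SE 0.17) and 0.25 (SE 0.11). DUSP6, the phosphatase of ERK, was lower, with 8.10, 6.41 and 8.95 CPM in even and 27.2, 29.8 and 43.6 CPM in odd libraries of set A and 26.8, 24.9 and 22.4 against 34.6, 30.5 and 37.5 CPM in set B. Of 24 TGF-β pathway genes, 3 were higher, 1 lower and 20 neither. They too went both ways, with 9 higher and 7 lower in set A alone and 4 and 3 in set B alone. PMEPA1, a feedback inhibitor, differed by 1.90 (SE 0.12) and 0.43 (SE 0.14), SMAD3, the signal transducer, by 0.84 (SE 0.08) and 0.16 (SE 0.06), LTBP3, which holds latent TGF-β, by 1.18 (SE 0.19) and 0.31 (SE 0.16), and the receptor gene TGFBR2 by -0.24 (SE 0.06) and -0.24 (SE 0.05).

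Secreted factors often listed for senescent cells were higher for 11 of 28 tested genes and lower for 2. CCL2, a monocyte chemokine chosen once its values were known, had 161, 167 and 139 CPM in even and 8.07, 6.57 and 8.18 CPM in odd libraries of set A, and 16.1, 24.6 and 23.0 against 7.90, 10.5 and 9.19 CPM in set B. PLAU, urokinase, was at 264, 266 and 239 against 39.0, 40.7 and 46.8 CPM in set A and 141, 113 and 116 against 79.1, 61.7 and 58.6 CPM in set B. TIMP2, a metalloproteinase inhibitor, differed by 2.65 (SE 0.07) and 0.42 (SE 0.09). The 2 lower genes were IGFBP3, an insulin-like growth factor binding protein, and GDF15, a stress cytokine. IGFBP3 had 78.5, 62.8 and 66.2 CPM in even and 223, 201 and 185 CPM in odd libraries of set A, and 60.5, 104 and 124 against 153, 218 and 268 CPM in set B. GDF15 had 27.0, 31.1 and 39.0 against 42.3, 54.4 and 49.1 CPM and 41.5, 33.9 and 40.6 against 63.2, 48.7 and 60.8 CPM. The chemokine genes CXCL1, CXCL2, CXCL3 and CXCL8 were tested and are not members.

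Interferon-stimulated genes included 5 higher and 1 lower of 29 tested, and MHC class I genes 3 higher and 0 lower of 15. SAMD9 and SAMD9L, antiviral restriction factors, differed by 3.21 (SE 0.13) and 3.50 (SE 0.11) in set A and by 0.57 (SE 0.20) and 0.91 (SE 0.18) in set B. ISG20, an exonuclease, was the lower one, at 14.4, 15.6 and 15.0 CPM in even and 35.0, 29.1 and 28.4 CPM in odd libraries of set A and 16.8, 16.3 and 21.1 against 27.6, 26.1 and 26.8 CPM in set B. B2M, HLA-B and the peptide transporter subunit TAP2 were higher by 0.50, 0.97 and 0.96 in set A and by 0.10, 0.20 and 0.35 in set B. HLA genes share sequence, so reads of HLA-B may be divided among them.

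The higher genes with the largest difference in the set where each differed less, among those with a mean of at least 5 CPM, included GALNT16, TRIML2, WFDC21P, MT-TC, C1orf116, CREB5, TNFRSF9, STC2, TAGLN and EFEMP1. GALNT16 (chr14:69259631-69386337), a transferase that starts mucin-type O-glycans, had 33.3, 28.1 and 36.1 CPM in even and 1.48, 1.57 and 1.65 CPM in odd libraries of set A, and 21.9, 14.9 and 20.9 against 2.48, 1.50 and 2.74 CPM in set B. TRIML2, a tripartite motif family gene, had 157, 153 and 157 against 8.07, 14.2 and 9.35 CPM and 49.8, 47.5 and 46.0 against 11.6, 13.2 and 10.2 CPM. In both genes the even libraries of set A were the highest, and those of set B lay above all 6 odd ones. TNFRSF9, the costimulatory receptor 4-1BB, differed by 4.43 (SE 0.44) and 1.54 (SE 0.18), EFEMP1, the matrix protein fibulin-3, by 3.26 (SE 0.10) and 1.50 (SE 0.19), and the transcription factor CREB5 by 2.66 (SE 0.25) and 1.58 (SE 0.37). WFDC21P, a pseudogene transcript, differed by 5.55 (SE 0.50) and 1.69 (SE 0.53), and C1orf116 by 2.61 (SE 0.15) and 1.63 (SE 0.56).

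Mitochondrially encoded RNAs differed by strand. Of the 21 tested mitochondrial genes, 5 lie on the minus strand, whose transcripts start at the light-strand promoter, and 4 of these 5 were members, all higher, against 1 of the 16 on the plus strand. The gene list holds 15 of the 21, without the transfer RNA genes, and 2 of these were members, MT-ND6 and MT-RNR1. The median difference of the minus-strand genes was 1.45 in set A and 0.98 in set B, and that of the plus-strand genes 0.43 and 0.15. MT-ND6, the protein-coding gene of that strand and a complex I subunit, had 47.7, 47.2 and 43.3 CPM in even and 13.6, 16.5 and 22.3 CPM in odd libraries of set A, and 59.8, 50.5 and 37.4 against 26.4, 17.3 and 13.5 CPM in set B. MT-TC, the cysteine transfer RNA gene, had 14.4, 17.4 and 22.2 against 3.30, 4.17 and 2.64 CPM and 9.87, 11.6 and 11.4 against 3.27, 3.01 and 3.52 CPM. MT-TS1 and MT-TP, for serine and proline, differed by 1.45 (SE 0.19) and 0.75 (SE 0.12) in set A and by 0.98 (SE 0.27) and 0.56 (SE 0.22) in set B. MT-TQ, for glutamine, had differences of 1.55 and 0.93 but overlapped. MT-RNR1, the small ribosomal RNA and the plus-strand member, was at 2638, 2646 and 2584 CPM in even and 1829, 1643 and 1752 CPM in odd libraries of set A and 2934, 2692 and 2456 against 2006, 1768 and 1599.5 CPM in set B. The share of all counts in mitochondrial genes was 4.79 to 5.36% in even and 3.52 to 4.18% in odd libraries of set A, and 4.21 to 6.43% and 3.87 to 5.87% in set B. MT-ND6, MT-TS1, MT-TP and MT-TQ were named after their values were seen. The library method primes on poly(A), and what gave reads at transfer RNA genes was not tested.

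**Figure D3:**
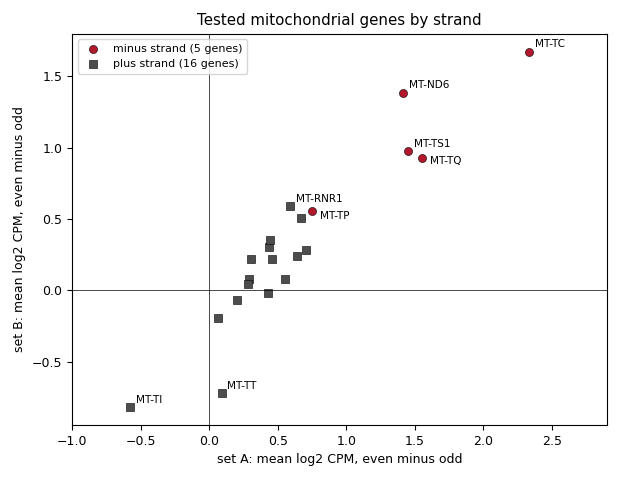
Even minus odd difference of mean log2 CPM in set A (horizontal) and set B (vertical) for the 21 tested mitochondrial genes. Circles are the 5 genes of the minus strand, squares the 16 of the plus strand. The minus-strand genes lie toward the upper right, with MT-TC farthest, beside MT-RNR1 and other plus-strand genes nearest to them.

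Glycolysis and hypoxia genes were lower in even libraries for 9 of 33 tested genes and higher for 3, where 4.6% of all tested genes were lower. The median of the 33 was -0.01 in set A and -0.27 in set B, with 11 lower and 11 higher in set A alone and 15 lower and 3 higher in set B alone. The 3 higher members, named after their values were seen, were SLC2A1, the glucose transporter GLUT1, VEGFA, an angiogenic growth factor induced by HIF-1, and PFKP, a phosphofructokinase. They differed by 0.97, 1.02 and 0.25 in set A and by 0.28, 0.70 and 0.22 in set B. PGK1, a glycolytic kinase, had 634, 628 and 563 CPM in even and 903, 868 and 915 CPM in odd libraries of set A, and 461, 510.1 and 501 against 947, 819.7 and 874 CPM in set B. LDHA, lactate dehydrogenase, was at 881, 809 and 765 against 1037, 999 and 1045 CPM in set A and 706, 700.5 and 782 against 984, 952 and 1027 CPM in set B. ALDOC, the brain-type aldolase, was at 5.18, 7.38 and 5.01 against 24.3, 21.1 and 21.5 CPM in set A and 3.48, 3.32 and 2.17 against 21.3, 15.4 and 16.6 CPM in set B. The differences of ALDOC, -1.90 (SE 0.18) and -2.49 (SE 0.24), were larger in size in set B, as were those of PGK1 and LDHA. GPI and TPI1, enzymes of other steps of glycolysis, differed by -0.58 (SE 0.04) and -0.57 (SE 0.10) in set A and by -0.40 (SE 0.06) and -0.25 (SE 0.10) in set B. CA9, a carbonic anhydrase that marks hypoxia and was named after its values were seen, was at 0.675, 0.418 and 0 CPM in even and 3.75, 3.86 and 4.61 CPM in odd libraries of set A, and at 0.290, 0 and 0 against 6.32, 2.63 and 3.32 CPM in set B. The even values of CA9 rest on 0 to a few counts. All of them lie below the level the count filter asks for (1.33 CPM), so CA9 passed the filter through its odd libraries. MIR210HG, the host transcript of the hypoxia-induced miR-210, had 2.70, 5.15 and 1.79 against 8.41, 9.29 and 5.46 CPM and 3.19, 1.66 and 1.74 against 9.82, 5.64 and 7.04 CPM. The 5-base core of the hypoxia response element, ACGTG on both strands, was in a promoter window of 8 of the 8 lower genes of the list that have one, and of 32.5% of all tested genes. The same core was in a window of 5 of the 7 lower endoplasmic reticulum chaperone genes (71.4%) and 1 of the 8 lower sterol genes (12.5%). The share in the glycolysis and hypoxia list may belong to the list as a whole, since its genes that are not members were not counted apart.

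Sterol and fatty acid synthesis genes were lower for 10 of 32 tested genes and higher for 1, with medians of -0.15 in set A and -0.21 in set B. SCD, the Δ9 desaturase, had 621, 687 and 597 CPM in even and 758, 807 and 857 CPM in odd libraries of set A, and 519.8, 486 and 499 against 675, 677 and 680.4 CPM in set B. FADS2, the first desaturase of polyunsaturated fatty acids, had 171, 172 and 149 against 262, 249 and 213 CPM and 126, 113 and 122 against 169.9, 184 and 177 CPM, and its partner FADS1 differed by -0.90 (SE 0.06) and -0.27 (SE 0.08). INSIG1, the sterol sensor partner of SCAP, named after its values were seen, differed by -0.72 (SE 0.13) and -0.39 (SE 0.13). ACLY, which makes cytosolic acetyl-CoA, was the higher gene, with 789, 657 and 711 against 425, 486 and 508 CPM in set A and 518, 519 and 558 against 465, 509 and 497 CPM in set B. SQLE and FASN were tested and are not members. The sterol element, searched as TCACNCCAC on both strands, was in a promoter window of 1 of the 8 lower genes with one (12.5%). It was in a window of 137 of the 10191 tested genes (1.34%), and of 2 of the 8 lower glycolysis and hypoxia genes (25.0%).

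Chaperones and folding enzymes of the endoplasmic reticulum were lower for 7 of 24 tested genes and higher for 0, with medians of -0.39 in set A and -0.18 in set B. XBP1, the transcription factor spliced in the unfolded protein response, had 64.4, 65.4 and 60.8 CPM in even and 374, 322 and 317 CPM in odd libraries of set A, and 156, 147 and 173 against 311, 297 and 345 CPM in set B, 5.32-fold and 2.00-fold more in odd libraries. The chaperone HSP90B1 differed by -0.52 (SE 0.08) and -0.18 (SE 0.09), and the disulfide isomerases P4HB and PDIA6 by -0.35 (SE 0.03) and -0.61 (SE 0.05) in set A and by -0.23 (SE 0.06) and -0.28 (SE 0.10) in set B. HSPA5, DNAJB9 and CALR were tested and are not members. The endoplasmic reticulum stress element, searched on both strands as CCAAT, any 9 bases and CCACG, was in a promoter window of 3 of the 7 lower genes (42.9%) and of 16 of the 10191 tested genes (0.157%). The windows of HSP90B1 (chr12:103930160-103930459, plus strand) and PDIA6 (chr2:10812736-10813035, minus strand) are shown as the 2 of highest mean CPM, with the matches in capitals.
HSP90B1: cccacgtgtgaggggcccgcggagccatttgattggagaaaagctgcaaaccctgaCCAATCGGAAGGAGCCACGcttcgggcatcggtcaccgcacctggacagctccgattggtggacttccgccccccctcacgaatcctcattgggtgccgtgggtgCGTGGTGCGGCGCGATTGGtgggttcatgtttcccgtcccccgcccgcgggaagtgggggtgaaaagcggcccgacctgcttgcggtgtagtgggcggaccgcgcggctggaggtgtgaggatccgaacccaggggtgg
PDIA6: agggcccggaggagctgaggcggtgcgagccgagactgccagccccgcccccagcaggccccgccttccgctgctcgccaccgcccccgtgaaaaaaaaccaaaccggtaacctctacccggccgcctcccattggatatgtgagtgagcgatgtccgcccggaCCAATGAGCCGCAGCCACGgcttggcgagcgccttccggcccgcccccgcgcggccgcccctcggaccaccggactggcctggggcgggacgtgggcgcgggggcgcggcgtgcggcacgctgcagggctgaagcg
HSP90B1 has a match on each strand. The share with this element may belong to the list as a whole, since its genes that are not members were not counted apart.

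Liver-type plasma protein and complement genes were lower for 7 of 12 tested genes and higher for 0, with medians of -1.42 in set A and -0.80 in set B. FGB, the fibrinogen β chain, had 70.9, 63.6 and 53.3 CPM in even and 464, 495 and 414 CPM in odd libraries of set A, and 115, 184 and 179 against 212, 316 and 374 CPM in set B. FGG, the γ chain, had 19.8, 14.9 and 14.0 against 183, 189 and 162 CPM and 44.4, 62.1 and 72.6 against 106, 143 and 172 CPM. APOH, a phospholipid-binding plasma protein, differed by -3.19 (SE 0.16) and -0.57 (SE 0.19). CP, the copper oxidase ceruloplasmin (chr3:149162414-149221829), had 7.43, 16.6 and 6.80 CPM in even and 237, 272 and 266 CPM in odd libraries of set A, and 75.2, 92.0 and 111 against 225, 219 and 317 CPM in set B. C4BPA, a complement inhibitor, was at 0.675, 0.696 and 1.79 against 10.3, 10.5 and 10.7 CPM and 1.60, 2.66 and 3.37 against 6.88, 7.27 and 7.04 CPM. Even libraries of set B lay between the even and the odd libraries of set A for FGB, FGG, APOH and CP.

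Mucins and other secretory epithelium genes were lower for 8 of 21 tested genes and higher for 1, with medians of -2.41 in set A and -0.47 in set B. SPDEF, the goblet cell transcription factor, had 7.20, 9.33 and 12.9 CPM in even and 48.4, 37.0 and 41.5 CPM in odd libraries of set A, and 21.8, 13.9 and 23.6 against 29.8, 30.6 and 31.1 CPM in set B. MUC5AC, a secreted airway mucin, was at 0.225, 1.25 and 2.51 against 76.1, 85.7 and 92.9 CPM in set A, where the lowest even value is under 3 counts, and at 26.4, 21.9 and 26.8 against 28.5, 28.5 and 43.8 CPM in set B. SLPI, an antiprotease of airway fluid, differed by -3.42 (SE 0.24) and -0.99 (SE 0.18). MUC1, a membrane mucin chosen once the values were known, had 9.23, 5.43 and 6.08 against 14.5, 17.1 and 14.0 CPM and 4.50, 3.65 and 4.89 against 12.6, 10.5 and 11.7 CPM, and differed more in set B. S100A10, an annexin partner, was the higher gene of the list, by 0.73 (SE 0.07) and 0.29 (SE 0.03).

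**Figure D4:**
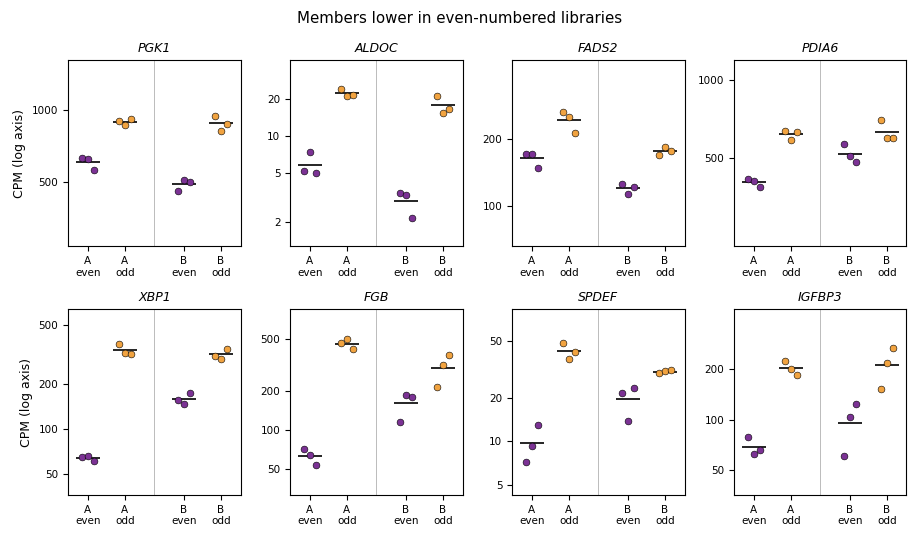
CPM on a log axis in each library for 8 genes lower in even libraries, with even left of odd in set A and again in set B (3 libraries each, bars at the mean). PGK1 and ALDOC differ more in set B, FADS2 about equally, and PDIA6, XBP1, FGB, SPDEF and IGFBP3 more in set A.

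The other lower genes with the largest difference in the set where each differed less were NTS, LXN, RARRES1, GAPLINC, PARM1 and HLA-DMB, beside ALDOC, CP, C4BPA, MIR210HG, FGG and IGFBP3 above. NTS, the peptide neurotensin (chr12:85874295-85882992), had 1.35, 1.11 and 0.358 CPM in even and 9.32, 8.97 and 9.79 CPM in odd libraries of set A, and 5.95, 5.65 and 5.76 against 24.1, 24.1 and 22.1 CPM in set B. LXN, a carboxypeptidase inhibitor, had 37.4, 44.7 and 21.1 against 131, 121 and 114 CPM and 43.0, 45.5 and 53.8 against 105, 113 and 135 CPM. HLA-DMB, a chain of the class II peptide loader, had 7.43, 6.54 and 7.87 against 145, 138 and 120.3 CPM and 18.9, 31.9 and 35.0 against 45.4, 70.2 and 76.2 CPM. In each of these 3 genes all 6 even libraries lay below all 6 odd ones with the sets pooled. RARRES1, a retinoid-responsive gene, differed by -1.38 (SE 0.20) and -1.30 (SE 0.28), the noncoding RNA GAPLINC by -2.01 (SE 0.29) and -1.24 (SE 0.19), and PARM1, a mucin-like membrane protein, by -2.88 (SE 0.18) and -1.21 (SE 0.27).

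Epithelial junction and keratin genes went both ways, with 6 higher and 3 lower of 28 tested. KRT18, a simple epithelial keratin, had 8548, 8097 and 6227 CPM in even and 2728, 2722 and 2772 CPM in odd libraries of set A, and 3081, 3227 and 3411 against 2306, 2748 and 2764 CPM in set B. KRT7 differed by 1.57 (SE 0.12) and 0.56 (SE 0.11). EPCAM, an epithelial adhesion gene chosen once its values were known, had 6.75, 5.43 and 4.65 against 29.8, 32.5 and 30.9 CPM and 4.79, 7.31 and 8.37 against 12.3, 13.7 and 17.0 CPM. ELF3, an epithelial transcription factor, differed by -0.52 (SE 0.10) and -0.28 (SE 0.07), and JUP, plakoglobin, by -0.20 (SE 0.06) and -0.38 (SE 0.10). NRF2 targets also went both ways, with 3 higher and 5 lower of 33. The thioredoxin reductase TXNRD1 and the aldose reductase AKR1B1 were higher by 0.57 and 0.99 in set A and by 0.17 and 0.20 in set B. The ferritin gene FTH1 and UGDH, which makes UDP-glucuronate, differed by -0.60 and -0.65 in set A and by -0.18 and -0.26 in set B. Among 17 aldo-keto reductases and aldehyde dehydrogenases, 2 were higher and 3 lower, with AKR1C1, ALDH3A2 and ALDH9A1 at -1.19, -0.79 and -0.23 in set A and -0.24, -0.15 and -0.15 in set B.

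Proliferation genes held few members. Of 44 G2/M and 45 G1/S genes, 0 were higher and 1 of each list was lower, although in set A alone, where 27.6% of all tested genes were lower, 35 and 42 were lower and 0 of either list higher. In set B alone, with 8.5% of all tested genes lower and 8.98% higher, 1 and 2 were lower and 1 and 3 higher. MKI67, the proliferation marker, overlapped in set B, with 231, 253 and 217 CPM in even and 209.7, 223 and 219 CPM in odd libraries. The p21 gene CDKN1A, a CDK inhibitor, had 256, 276 and 243 CPM in even and 43.8, 46.7 and 43.1 CPM in odd libraries of set A but overlapped in set B, with 63.3, 48.2 and 63.4 against 53.9, 56.7 and 62.4 CPM. CDKN1B, another CDK inhibitor gene, LMNB1, a lamina gene, and DCAF7, a scaffold that binds DYRK1B, are not members either, with differences of -1.03, -0.68 and -0.09 in set A and -0.13, 0.20 and 0.14 in set B. CCND1, cyclin D1 and a DYRK1B substrate, is a member, at 251, 241 and 259.8 CPM in even and 187, 198 and 212 CPM in odd libraries of set A and 187, 206 and 211 against 148, 175 and 181 CPM in set B. LIN54, a subunit of the DREAM complex, had differences of -0.77 (SE 0.34) and -0.38 (SE 0.13). Of the p53 targets, 1 of 30 was higher, SPATA18, which acts in mitochondrial quality control (1.66 (SE 0.11) and 0.33 (SE 0.18)), and 1 lower, GDF15.

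The members in the next lists, of housekeeping and nuclear structure genes, were on the lower side, where 4.6% of all tested genes were. Of 76 cytosolic ribosomal protein genes, 2 were lower: RPLP0 (-0.99 (SE 0.41) and -0.67 (SE 0.22)) and RPL10 (-0.74 (SE 0.14) and -0.33 (SE 0.12)), genes of families with many pseudogene copies. Of 53 nuclear respiratory chain genes, 3 were lower (5.66%), NDUFB1, ATP5F1A and NDUFA2, with differences of -0.34, -0.34 and -0.38 in set A and -0.13, -0.12 and -0.18 in set B. In the list of 14 lamina and chromatin genes 2 were lower (14.3%). They were HMGB3, a chromatin protein, and LBR, the lamin B receptor, with differences of -0.98 (SE 0.07) and -0.53 (SE 0.08) in set A and -0.42 (SE 0.20) and -0.17 (SE 0.07) in set B. Lysosome genes had 1 lower of 33, and heat shock genes (20) and metallothioneins (4) had no member.

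**Figure D5:**
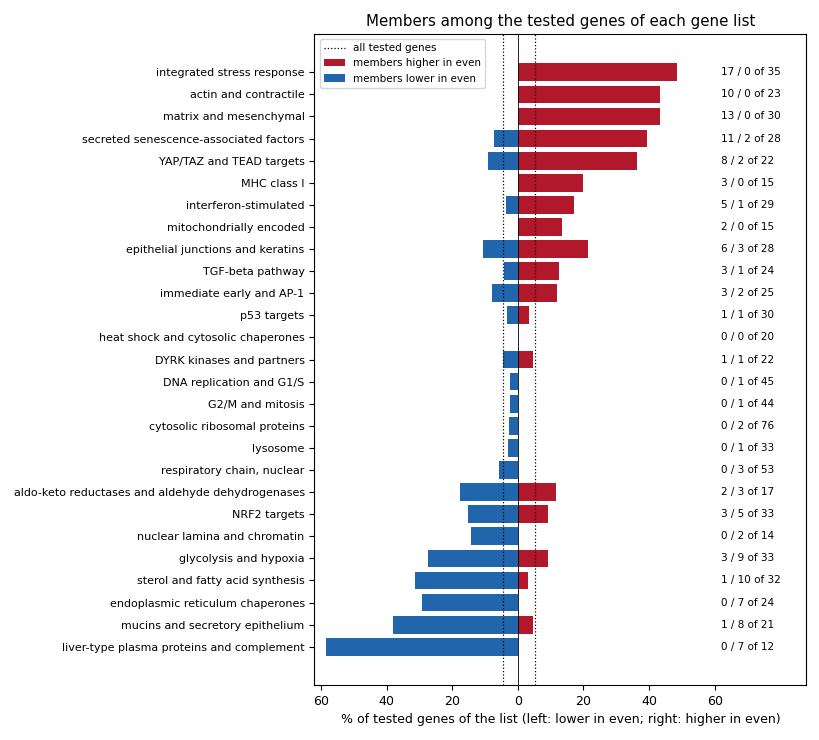
For each gene list with at least 10 tested genes, the bar to the right is the share of its tested genes that were higher and the bar to the left the share that were lower in even libraries of both sets, in percent, with the counts (higher / lower of tested) at the right. Dotted lines mark the shares over all tested genes, 5.22% higher and 4.6% lower. Stress response genes are at the top with 17 / 0 of 35 and liver-type plasma protein genes at the bottom with 0 / 7 of 12.

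The balance between the sets varied among the lists. The difference of mean log2 CPM, which the prior count draws toward 0 in low genes, was larger in size in set B for 142 of the 1281 members (11.1%). It was so for 6 of the 12 glycolysis and hypoxia members (LDHA, PGK1, ALDOC, CA9, BNIP3 and BNIP3L), 7 of the 17 stress response members (PHGDH, GARS1, YARS1, CEBPG, SLC7A1, CHAC1 and ALDH1L2) and 4 of the 11 sterol and fatty acid members (SCD, FDPS and EBP among them). It was so for none of the 13 matrix, 10 actin, 13 secreted factor, 10 YAP/TAZ and 7 plasma protein members. Members of 1 list share libraries, so these counts describe the lists and are not independent.

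The comparison the titles give, doxycycline against control, was made on the same libraries as labelled. DYRK1B did not follow these titles in every library: the library labelled Y273F control 2 (8) had more of it than those labelled WT doxycycline 2 and 3 (5 and 6) and Y273F doxycycline 1 and 2 (10 and 11). Whether each title stands at its own library number was not tested, so the counts below hold for the titles as given. In each of the WT and Y273F doxycycline groups 2 of 3 libraries are even, and in each of the control groups 1 of 3. The tests below hold no term for even numbers or for the set, so both divisions count as spread within the title groups. Finding 0 genes by title therefore does not mean that doxycycline changed none. With edgeR's quasi-likelihood test no gene passed a Benjamini-Hochberg adjusted p of 0.05 over both lines, in the WT line or in the Y273F line, and 161, 118 and 215 genes had an unadjusted p under 0.05. DESeq2 also called 0, with 141, 110 and 214 genes at an unadjusted p under 0.05, and limma-voom 0, with 197, 145 and 199. Of the 1281 genes, 6, 2 and 2 had an unadjusted p under 0.05. Every title group mixes even and odd libraries, and the members were chosen because these differ, which widens their spread within the groups. These counts thus follow in part from the choice of genes and say nothing about doxycycline. The median log2 fold change by title, doxycycline over control, was 0.26 over both lines, 0.11 in the WT line and 0.38 in the Y273F line for higher members, and -0.17, -0.13 and -0.19 for lower members. These medians share their libraries with the rule and are no separate evidence. Nothing in the labels gives a culture for each library beyond the series text, so the p-values measure the spread between these libraries.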

How the data were processed

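For 12 QuantSeq FWD V2 libraries of A549 cells the authors deposited raw counts by gene (unstranded, transcript strand, opposite strand) and a merged table of counts by symbol. The aligner was STAR and the build GRCh38.p14, per the submitters' processing notes. Not given in the sources used here are the STAR version, the annotation and whether molecular identifiers were used. All 40605 rows of the merged table equal a transcript-strand row. Reads that name no gene, 35.5 to 43.2% of a library, were left out.

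Library numbers and groups come from the labels. Genes were filtered with filterByExpr (minimum count 10, smallest set 3) and scaled with TMM factors in edgeR 4.0.16 (R 4.3.3), and log2 CPM used a prior count of 2. A fit with a set term and an even term gave log2 fold changes, used without p-values. The titles were compared with glmQLFTest in a model of 4 group means, with Benjamini-Hochberg adjustment over 13047 genes. The procedure was also run on simulated counts. Those for the titles held no difference between even and odd libraries or between the sets. They therefore do not show what the title comparisons could detect here. The members, gene lists and comparisons were chosen with earlier results of these data known.

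Named genes are the 12 higher and 12 lower members with the largest smaller-of-both-sets difference (mean of at least 5 CPM), up to 4 members of highest CPM per list with at least 2, the genes DYRK1B, CDKN1A, CDKN1B, CCND1, LMNB1, MKI67, GDF15 and DCAF7, and those nearest the threshold. Any other gene is marked in the text as named with its values known, except genes listed by name as not being members. Some genes the rule names are not reported here. Floors of 3 counts cover counting error only, since amplification copies may be included. Promoter windows and coordinates are RefSeq GRCh38.p14, and mitochondrial strands GENCODE 29. Alternatives were DESeq2 1.42.0 size factors and test, limma-voom (3.58.1), upper-quartile factors, library totals, other filters, unstranded counts, all identifiers, leaving out mitochondrially encoded genes and DYRK1B, no set term, gaps of 0.2 and 0.5, each set alone, a replicate block, and each library left out. Thinning to the smallest library was added after the data were seen.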

Additional observations from a re-analysis of the deposited data

Results flagged for a closer look

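For 126 genes, those the naming rule gives and some named after their values were seen, the 6 even and the 6 odd libraries were looked at apart. In 7 of these 252 sets of 6 libraries, 1 library lay far from the nearest of the others (Dixon's criterion, which chance meets in about 1 of 20 such sets). Library 3, labelled WT control 3, was such a library in 3 genes. There STC2 was at 32.7 CPM (next odd library 19.3), RPLP0 at 1554 CPM (next 1979.6) and KRT18 at 2306 CPM (next 2722). In library 1, labelled WT control 1, ISG20 was at 35.0 CPM, against 29.1 CPM in the next odd library. GARS1 was at 212 CPM in library 4, labelled WT doxycycline 1, with the next even library at 197 CPM. In library 5, labelled WT doxycycline 2, ALDH9A1 was at 89.3 CPM (next odd library 79.0) and SLC16A12 at 0.209 CPM (next 0.0447), the last being under 3 counts.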

How the results depend on the processing

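The number of members changed most with the gap asked for between even and odd libraries. With a gap of at least 0.2 log2 units in both sets it was 359 (225 higher and 134 lower), and with at least 0.5 it was 107 (75 and 32). The median log2 fold change of members, 0.80 for higher and -0.55 for lower ones, was 1.09 and -0.73 in set A alone and 0.44 and -0.34 in set B alone. With each library left out in turn, members numbered 1340 to 1907, higher ones 702 to 1009 and lower ones 625 to 948, and the medians were 0.75 to 0.86 and -0.58 to -0.53. The 948 lower members were counted without library 3, labelled WT control 3, and the 625 without library 1, labelled WT control 1. Fewer libraries leave fewer chances to overlap, but this holds for every library left out. What made these counts differ was not tested. Other scalings, filters, unstranded counts and all identifiers gave 1126 to 1321 members. When mitochondrially encoded genes and DYRK1B were left out, 665 of the higher and 592 of the lower members were shared. Scaled to library totals, 621 were higher and 640 lower. Thinned to the smallest library, 1013 were members, of which 761 were shared with the 1281. For the single genes, those the rule names and some named after their values were seen, 1512 values came from left-out libraries and 881 from other settings. None of the members among them changed direction, but 93 and 218 of all these values moved by at least the SD between replicates. Leaving out 1 library or fitting 1 set could hardly turn a member, whose even and odd libraries do not overlap in either set. Changes of direction were not counted for genes that are not members. Of those, LMNB1, MKI67 and DCAF7 had differences of opposite sign in sets A and B. The title comparisons called 0 genes in all settings, except that leaving out 1 library gave 0 to 1 over both lines and 0 to 1 in the Y273F line (1 without Y273F doxycycline 2 or 3, and in the Y273F line also without Y273F control 2). With a term for the replicate number (replicate block) 0 genes were called in each. Same-numbered samples did not deviate together (correlations of -0.66 to 0.09). Every such pair holds 1 even and 1 odd library, so these correlations cannot show whether the numbers pair the libraries. Depth limits genes near 3 counts, and the shallower even libraries make low even values less certain.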

Other observations

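Reads from the strand opposite to mitochondrial genes, which the merged table does not hold, also differed with the library number. Opposite to the plus-strand mitochondrial genes, even libraries held 426 to 498 CPM in set A and 340 to 473 CPM in set B, against 157 to 201 and 150 to 186 CPM in odd libraries. All 6 even libraries lay above all 6 odd ones. The transcript-strand sum of the minus-strand genes was 170 to 183 CPM in even and 64.7 to 73.8 CPM in odd libraries of set A, and 121 to 165 and 62.5 to 86.3 CPM in set B. The plus-strand genes themselves summed to 47461 to 53617 CPM in even and 34785 to 41330 CPM in odd libraries of set A, without overlap. In set B they summed to 41808 to 67167 CPM in even libraries and 38193 to 60103 CPM in odd ones, which overlapped. Transcription from the light-strand promoter covers the minus-strand genes and the opposite strand of the others, and both sums were chosen for display after the differences of MT-ND6 and MT-TC were seen.

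The members were also counted by gene class and chromosome. Over all tested genes 5.22% were higher and 4.6% lower, 9.82% together. Zinc finger genes with a ZNF symbol had 2 higher and 7 lower members of 396 tested (2.27%), and antisense transcripts 3 higher and 14 lower of 286 (5.94%). Solute carriers had 12 higher and 12 lower of 197 (12.2%). Chromosome 19 had 17 higher (1.98%) and 39 lower (4.53%) members of 860 tested genes, and chromosome 5 had 44 (7.6%) and 26 (4.49%) of 579. Both lower shares lay near that of all tested genes. Chromosomes 20, 18 and 14 had higher shares close to that of chromosome 5 (7.58%, 7.57% and 7.5%). Promoter windows of higher members had a median GC content of 68.8% and those of lower members 64.3%, against 65.3% over all tested genes with a window.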
